A study of Rattus norvegicus with 12 samples.

Results

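The HOX cluster miRs measured on the cards were miR-10b (assay mmu-miR-10b), miR-196b (mmu-miR-196b) and miR-196c (rno-miR-196c). They were taken by assay name, as the rows of the Ct table that carry a miR-10 or miR-196 name, and they make up 3 of the 154 miR assays. Of a list of 6 miRs that lie in HOX clusters (miR-10a, miR-10b, miR-196a, miR-196b, miR-196c and miR-615), these 3 had a row.

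The samples were 12 single dorsal root ganglia (DRG) of adult male Sprague-Dawley rats, collected at Day 23 after surgery on the sciatic nerve. The 3 groups of 4 arrays were Sham, Sural-SNI and Tibial-SNI. SNI is the spared nerve injury, in which one branch of the sciatic nerve is left intact. In Sural-SNI the common peroneal and tibial branches were ligated and transected, and in Tibial-SNI the common peroneal and sural branches were. The lumbar levels L3 and L4 were each represented by 2 arrays per group, numbered 1 and 2 in the labels, and the labels do not say whether an L3-DRG and an L4-DRG of the same group and number came from the same rat. Each array was a TaqMan rodent microRNA card whose wells give a Ct, the number of PCR cycles after which the product of a well is detected, and more of a miR gives a lower Ct.

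MiRs are short RNAs that lower the output of the mRNAs they pair with, mainly through bases 2 to 8 of the mature strand, called the seed. The genes of the miR-10 and miR-196 families sit among the HOX genes, whose proteins give cells along the body their position from head to tail, and both families have HOX mRNAs among their known targets. The DRG of neighbouring spinal levels serve different nerves, with the sciatic nerve drawing on L4-DRG and much of L3-DRG serving the saphenous nerve, so the lumbar level was compared before the injuries. In tracer labelling at a later day, the paper saw injured neurons in L4-DRG but not in L3-DRG. It saw a larger proportion of them in Sural-SNI than in Tibial-SNI. An SNI group therefore names the surgery, and its L3-DRG arrays need not hold injured neurons.

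The mature sequences are shown because the miR-196 family differs at a single base while miR-10b and miR-10a differ in where their annotated strands begin. They are the rat sequences of RefSeq (GRCr8), 5′ to 3′, with the seed in capitals. The assay names give no arm, and the 5p strand is printed for each. MiR-10a and miR-196a had no row in the Ct table and are shown as the closest relatives.
miR-10a-5p: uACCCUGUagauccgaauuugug
miR-10b-5p: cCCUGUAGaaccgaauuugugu
miR-196a-5p: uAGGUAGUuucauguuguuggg
miR-196b-5p: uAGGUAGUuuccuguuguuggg
miR-196c-5p: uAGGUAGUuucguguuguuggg

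MiR-196b and miR-196c shared all bases but one, written C12G when miR-196b is given first and positions are counted from the 5′ end. MiR-196a differed from them at the same position, by A12C from miR-196b and by A12G from miR-196c. The difference lies outside the seed, and the 3 miR-196 strands were the only ones of the 724 mature rat miRs in the table to hold AGGUAGU at bases 2 to 8. The same letters begin a base later, at bases 3 to 9, in 11 of the 12 let-7 and miR-98 5p entries, of which let-7a is one.
let-7a-5p: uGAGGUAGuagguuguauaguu

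The annotated miR-10b strand starts 2 bases after the start of miR-10a when the hairpins are aligned, so the letters at bases 2 to 8 are not the same. The stretch of the miR-10b hairpin that lines up with miR-10a is printed to show this, and it differed from miR-10a by U12A only. The assay carries a mouse name and the mouse strand is not shown. Which start the assay reads was not tested, so the measured strand need not have the seed of the annotated rat strand.
miR-10b hairpin, stretch aligned to miR-10a: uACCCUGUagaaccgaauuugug

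The miR-10b strand lies at chr3:80035886-80035907 on the plus strand, and its gene falls within the span of Hoxd4, between Hoxd8 and Hoxd3. MiR-196b lies at chr4:82661149-82661170 on the minus strand, between Hoxa9 and Hoxa10. MiR-196c lies at chr10:81727561-81727582 on the plus strand, between Hoxb13 and Hoxb9. The 3 measured miRs therefore came from 3 different clusters, HOXD, HOXA and HOXB. MiR-10a, at chr10:81779730-81779752 on the plus strand, lies between Hoxb5 and Hoxb4 in the cluster that holds miR-196c, and miR-196a, at chr7:135988900-135988921 on the plus strand, lies between Hoxc10 and Hoxc9.

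The miR-10b assay gave Ct values from 24.5 to 32.3 over the 12 arrays, with a mean of 27.8. The miR-196b assay gave values from 26.7 to 28.2 with a mean of 27.5, and the miR-196c assay values from 28.7 to 30.9 with a mean of 29.7. The table was limited to miRs detected in every array, and among these 3 miR-10b had the widest range. A Ct also depends on the assay, so these values give no order of abundance between miRs. The sensory neuron markers miR-182 and miR-183 had mean Ct values of 23.5 and 27.6. The skeletal muscle assays ran from 24.1 (miR-133a) to 30.8 (mmu-miR-1). The leukocyte miRs ran from 24.2 (miR-150) to 30.6 (miR-142-3p). These ranges overlap that of the neuron markers and come from different assays, so the values do not check the tissue label.

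Levels were expressed as −ΔCt, the mean Ct of 3 reference assays (MammU6, snoRNA135 and U87) minus the Ct of the miR, so that 1 unit is a doubling. In the bulk RNA of a DRG, fewer cells of a type and less RNA per cell cannot be told apart.

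The −ΔCt of miR-10b in L3-DRG was −5.39 and −0.42 in the Sham arrays, −3.57 and −1.39 in Sural-SNI and −5.43 and −0.72 in Tibial-SNI, each time for replicate 1 and then replicate 2. In L4-DRG it was −3.78 and −0.86 in Sham, −3.01 and −0.59 in Sural-SNI and −5.06 and −1.21 in Tibial-SNI. The 6 arrays of replicate 1 were all below the 6 of replicate 2, and the 3 groups and both levels overlapped.

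The −ΔCt of miR-196b in L3-DRG was −2.03 and −2.66 in Sham, −1.68 and −2.90 in Sural-SNI and −1.26 and −2.57 in Tibial-SNI, in the same order. In L4-DRG it was −1.92 and −3.40 in Sham, −2.47 and −2.75 in Sural-SNI and −1.35 and −2.78 in Tibial-SNI. Here the replicate 1 array was the higher one in each group and level, the opposite of miR-10b.

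The −ΔCt of miR-196c in L3-DRG was −4.68 and −5.55 in Sham, −4.39 and −5.54 in Sural-SNI and −3.08 and −4.99 in Tibial-SNI. In L4-DRG it was −3.99 and −5.05 in Sham, −3.85 and −4.84 in Sural-SNI and −3.09 and −5.00 in Tibial-SNI. All 6 replicate 1 arrays were above all 6 replicate 2 arrays, and the highest values were those of both Tibial-SNI replicate 1 arrays. How many of all miRs separate by replicate number, as miR-10b and miR-196c did, was not counted.

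**Figure D1:**
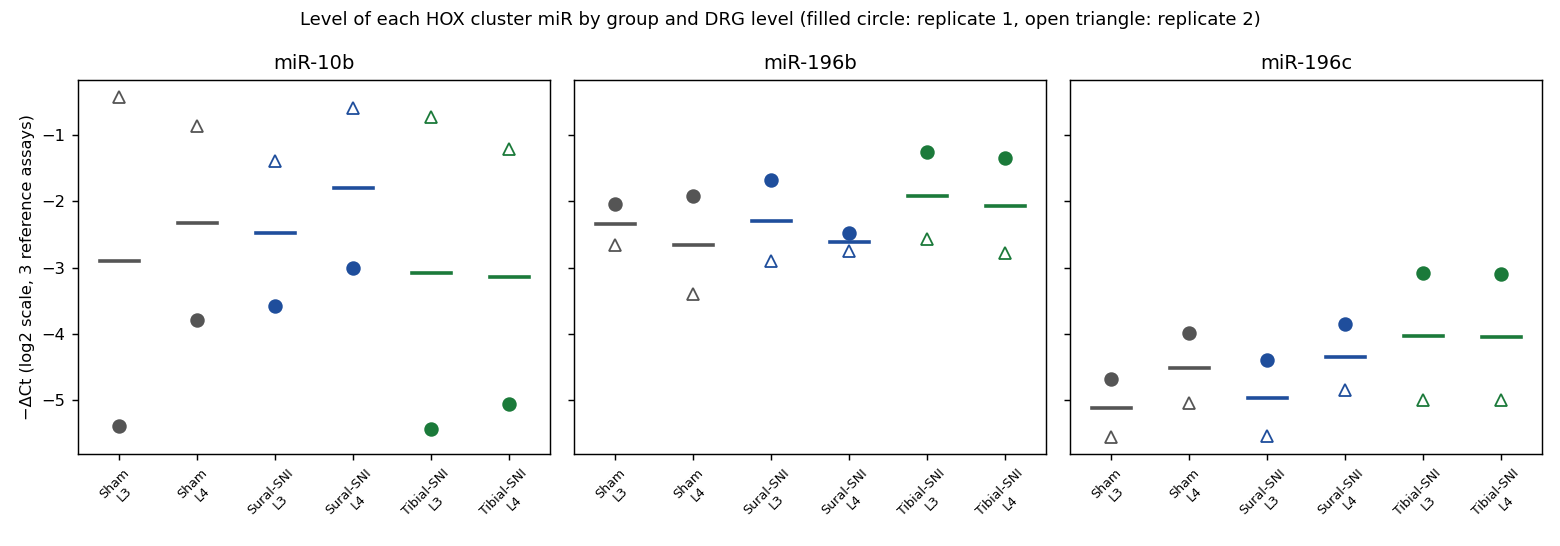
−ΔCt (log2 scale) of miR-10b, miR-196b and miR-196c in each of the 12 arrays, by group and DRG level, with a filled circle for replicate 1, an open triangle for replicate 2 and a line at the mean of the 2 arrays. MiR-10b spans −5.43 to −0.42, with replicate 1 below replicate 2 in every group, while both miR-196 assays are higher in replicate 1 on this scale of 3 reference assays.

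The mean −ΔCt of miR-10b was 3.51 higher in replicate 2 than in replicate 1, the sixth highest shift of the 154 miRs, whose median shift was 0.52. The same difference was −1.06 for miR-196b and −1.31 for miR-196c, which ranked 21 and 15 from the lowest. As raw Ct, the shift was −5.04 for miR-10b against −0.48 for miR-196b and −0.22 for miR-196c, beside a median of −2.05 over all miRs, so both miR-196 assays read nearly the same Ct in both sets of arrays. The reference assays did not move alike. From replicate 1 to replicate 2 the mean Ct of MammU6 rose from 17.6 to 18.5. That of snoRNA135 fell from 32.9 to 28.9 and that of U87 from 27.3 to 25.8. The sign of the miR-196 shifts therefore depends on the reference, and with MammU6 alone it would be the opposite. Against the mean of all miRs the shifts were −1.67 for miR-196b and −1.93 for miR-196c. The labels do not say what a replicate number stands for, and the mean Ct of an array over all miRs ran from 27.2 to 30.5, with 29.9 in the replicate 1 arrays and 27.8 in the replicate 2 arrays. Because arrays of the same number moved together, the differences from limma are also given with the replicate as a block, which compares arrays of the same number.

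In L4-DRG the mean −ΔCt of miR-196c was −4.30 ± 0.79 (SD, n = 6) against −4.71 ± 0.92 in L3-DRG, a difference of 0.40. MiR-10b had a difference of 0.40 as well, from −2.82 ± 2.29 in L3-DRG to −2.42 ± 1.81 in L4-DRG (SD, n = 6). MiR-196b had a difference of −0.26, from −2.18 ± 0.63 to −2.44 ± 0.72, and without the L4-DRG array of Sham replicate 2 it was −0.07. None of these differences exceeded the spread between arrays in limma with the injury group as a covariate. The 95% interval ran from −2.17 to 2.98 for miR-10b, from −1.15 to 0.63 for miR-196b and from −0.65 to 1.46 for miR-196c, each with a Benjamini-Hochberg adjusted p of 0.987. Over all miRs 0 of 154 (0%) passed an adjusted p of 0.05 in limma and 3 (1.95%) an unadjusted p of 0.05, and no HOX cluster miR was among those 3. The exact permutation test, with the levels permuted within each group, gave two-sided p values of 0.732, 0.519 and 0.398 for miR-10b, miR-196b and miR-196c.

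With group and replicate as a block the intervals were narrower. The difference of miR-196c, 0.40, then had an interval from −0.02 to 0.83 and a limma p of 0.0596 (adjusted p = 0.777), which ranked 11 of the 154 miRs. The intervals of miR-10b and miR-196b ran from −0.28 to 1.08 and from −0.72 to 0.20. In this fit 9 miRs (5.84%) had an unadjusted p under 0.05 and 0 an adjusted one.

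The pairs of arrays behind these means were as follows. For miR-196c, L4-DRG minus L3-DRG was 0.70 and 0.50 in Sham, 0.54 and 0.70 in Sural-SNI and −0.01 in both Tibial-SNI pairs. So miR-196c was higher in L4-DRG in each of the 4 pairs of Sham and Sural-SNI, and the Tibial-SNI pairs showed a difference near 0. For miR-10b the values were 1.60 and −0.44 in Sham, 0.57 and 0.80 in Sural-SNI and 0.37 and −0.49 in Tibial-SNI, with no common sign. For miR-196b they were 0.11 and −0.74 in Sham, −0.79 and 0.15 in Sural-SNI and −0.09 and −0.21 in Tibial-SNI.

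The interaction tests whether the difference between levels itself changed with the injury. Its replicate block was a shift between replicate numbers, fitted for each level and shared by all groups. For miR-196c the level difference was lower in Tibial-SNI than in Sham by 0.61 (95% interval of the difference −3.58 to 2.36, limma adjusted p = 1.00), and with the replicate block the interval ran from −1.87 to 0.66 (limma adjusted p = 0.615). Against Sural-SNI the value was −0.63, with an interval from −1.90 to 0.64 with the block (limma adjusted p = 0.780). In the 3 interactions the adjusted p of all HOX cluster miRs was above 0.99 without the block, and over all miRs 0 of 154 were called, while between 1 (0.649%) and 2 (1.30%) had an unadjusted p under 0.05. With the block 12 (7.79%), 17 (11.0%) and 8 (5.19%) did, for Sural-SNI with Sham, Tibial-SNI with Sham and Tibial-SNI with Sural-SNI, none of them a HOX cluster miR, and 0 had an adjusted one. A level difference of miR-196c that is smaller in Tibial-SNI was therefore not shown.

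The reference assays moved with the level too, and the mean Ct of the 3 was 25.4 in L3-DRG and 24.9 in L4-DRG. With each array's mean Ct over all miRs used in their place, miR-196c was higher in L4-DRG in 6 of 6 pairs, with 0.50 and 0.22 in Sham, 0.78 and 0.69 in Sural-SNI and 0.31 and 0.10 in Tibial-SNI. Over all miRs 2 of 154 (1.30%) were higher in all 6 pairs on this scale, and the other was miR-106a, named after its values were seen. The mean difference of miR-196c was then 0.43 with an interval from 0.07 to 0.80 and a limma p of 0.0259 with the replicate block, but its adjusted p was 0.443. Of all miRs, 13 (8.44%) were under 0.05 without adjustment in that fit. MiR-10b and miR-196b kept mixed signs, with 4 and 2 of 6 pairs higher in L4-DRG.

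**Figure D2:**
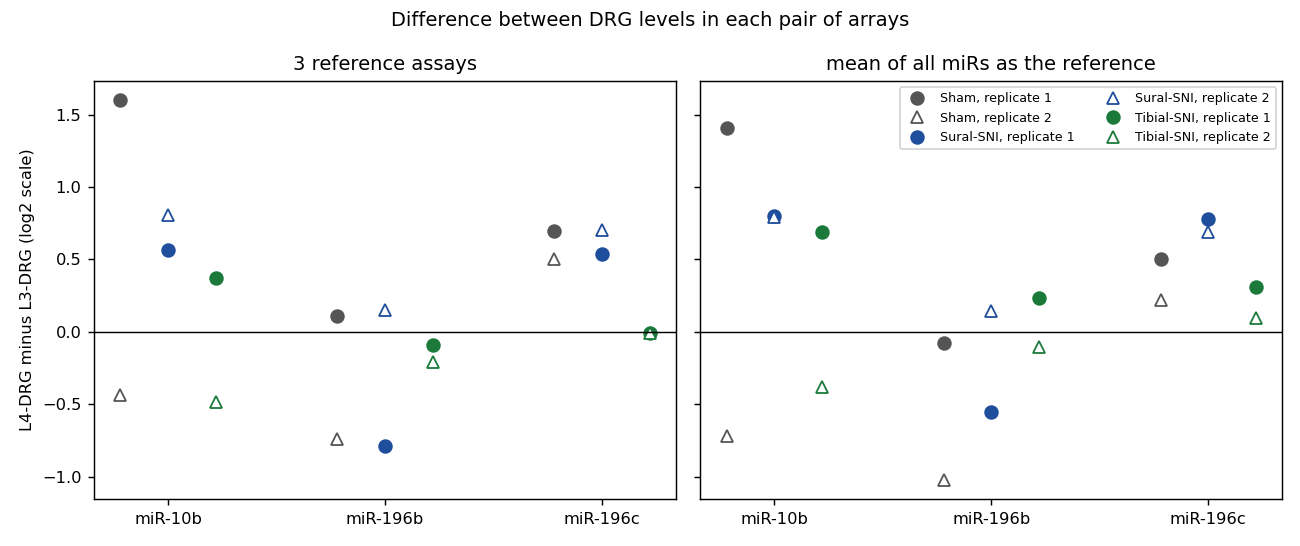
L4-DRG minus L3-DRG (log2 scale) for each pair of arrays with the same group and replicate number, with 3 reference assays on the left and the array's mean over all miRs in their place on the right. Points of miR-196c lie between −0.01 and 0.70 on the left and between 0.10 and 0.78 on the right, while miR-10b and miR-196b have points on both sides of 0.

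Sham alone gives the level difference without a nerve injury. It was 0.58 for miR-10b, −0.31 for miR-196b and 0.60 for miR-196c, with 2 arrays a level and the spread taken from all 12. The replicate block here was that of the interactions, so its shift between numbers was estimated from the injured groups too. For miR-196c the interval was −1.50 to 2.70 in limma, and −0.30 to 1.50 with the replicate block (adjusted p = 0.653), and 0 of 154 miRs were called in both fits, with 0 (0%) and 14 (9.09%) at an unadjusted p under 0.05. Without the L4-DRG array of Sham replicate 1 the difference of miR-196c was 0.07, and without that of replicate 2 it was 1.13. With the block the intervals of miR-10b and miR-196b in Sham were −1.14 to 2.30 and −1.23 to 0.60.

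Because miR-196b and miR-196c share their seed and differ by 1 base, they were also compared with each other within each array, which needs no reference. The Ct of miR-196b minus that of miR-196c, in which a higher value stands for more miR-196c relative to miR-196b, was −2.65 and −2.89 in the L3-DRG of Sham, −2.71 and −2.64 in Sural-SNI and −1.82 and −2.42 in Tibial-SNI. In L4-DRG it was −2.07 and −1.65 in Sham, −1.38 and −2.10 in Sural-SNI and −1.74 and −2.22 in Tibial-SNI. Each L4-DRG array was above the L3-DRG array of its group and number, and the levels overlapped only through the L3-DRG array of Tibial-SNI replicate 1.

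The mean was −1.86 ± 0.32 in L4-DRG and −2.52 ± 0.38 in L3-DRG (SD, n = 6), a difference of 0.66 toward miR-196c that was above 0 in 6 of 6 pairs, from 0.08 to 1.33. The two-sided exact permutation p was 0.0185, where 0.00926 is the smallest the 216 arrangements allow. After adjustment over the 6 comparisons made between members it was 0.111, which is above 0.05. A lone difference at the smallest p would also stay above 0.05 after this adjustment, so the correction could not decide here. With the arrays paired, exchanging the signs of the 6 pair differences gave an exact p of 0.0312 (adjusted 0.188). That p is the smallest that 6 pairs allow, and this paired test was chosen after seeing the data. How many other pairs of miRs lie on 1 side of 0 in all 6 was not counted. The 0.66 joins a −ΔCt of miR-196c that was higher in L4-DRG (0.40) and one of miR-196b that was lower (−0.26). Neither of these was called. MiR-10b differed from miR-196b by 0.66 and from miR-196c by −0.0008 between the levels, with exact permutation p values of 0.648 and 1, or 0.0625 (adjusted 0.188) and 1 with the arrays paired. Whether the primers of one miR-196 assay also read the other miR-196 strands was not tested.

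**Figure D3:**
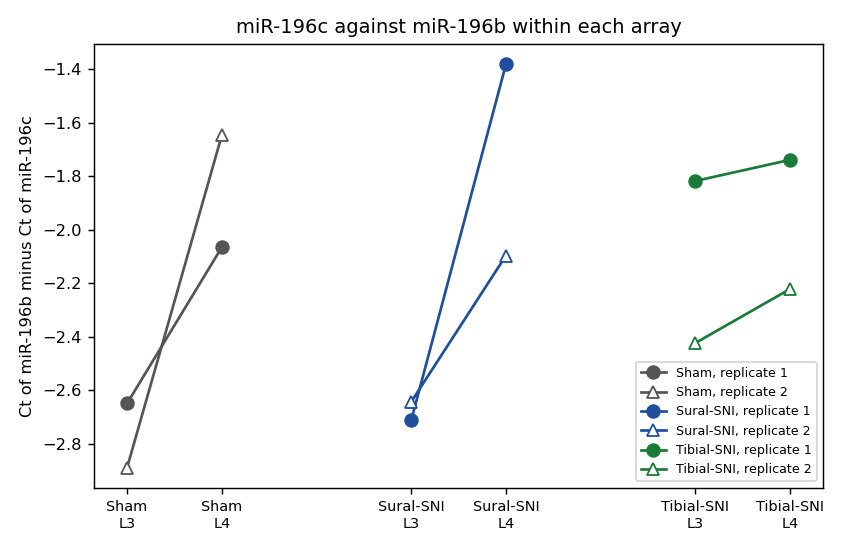
Ct of miR-196b minus Ct of miR-196c within each array, with a line joining the 2 levels of each group and replicate number (filled circle replicate 1, open triangle replicate 2). All 6 lines go up from L3-DRG to L4-DRG, by 0.08 to 1.33, and those of Tibial-SNI are the flattest.

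The injuries were compared next, first with Sham. The Tibial-SNI minus Sural-SNI values of miR-10b and miR-196c were known when these miRs were chosen. The same SNI arrays enter the comparisons with Sham, so the counts, p values and ranks of both miRs there are a description. The log2(fold change) of an SNI array is its −ΔCt minus that of the Sham array matched by level and replicate number, and computed this way all 24 values of these miRs lay within 0.01 of the deposited ones. In Sural-SNI, miR-10b had values of 1.81 and −0.97 in L3-DRG and 0.77 and 0.27 in L4-DRG. MiR-196b had 0.36 and −0.24 in L3-DRG and −0.55 and 0.65 in L4-DRG, and miR-196c had 0.29 and 0.01 in L3-DRG and 0.14 and 0.20 in L4-DRG. MiR-196c thus stayed close to Sham in all 4 arrays, at 0.01 to 0.29, whereas miR-10b and miR-196b lay on both sides of it. The mean difference between Sural-SNI and Sham was 0.47 (95% interval −2.69 to 3.63) for miR-10b, 0.06 (−1.03 to 1.15) for miR-196b and 0.16 (−1.13 to 1.46) for miR-196c, each with an adjusted p above 0.99 in limma. With the replicate block the intervals were −0.57 to 1.51, −0.51 to 0.62 and −0.45 to 0.77, in the same order. Of all 154 miRs 0 (0%) were called, and 0 had an unadjusted p under 0.05, or 10 (6.49%) with the replicate block. The 4 values of miR-196c were all above 0, as were those of 16 miRs (10.4%).

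In Tibial-SNI, miR-196c had log2(fold change) values of 1.61 and 0.56 in L3-DRG and 0.90 and 0.05 in L4-DRG. MiR-196b had 0.77 and 0.09 in L3-DRG and 0.57 and 0.62 in L4-DRG. MiR-10b had −0.05 and −0.30 in L3-DRG and −1.28 and −0.35 in L4-DRG. Both miR-196 assays were above Sham in 4 of 4 arrays and miR-10b below it in 4 of 4. Over all miRs, 28 of 154 (18.2%) were above 0 in all 4 Tibial-SNI arrays and 5 (3.25%) were below 0 in all 4. For miR-196c the higher value of each level was that of replicate 1.

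The mean difference between Tibial-SNI and Sham was 0.78 (95% interval −0.52 to 2.07) for miR-196c, 0.52 (−0.57 to 1.61) for miR-196b and −0.50 (−3.65 to 2.66) for miR-10b, each with an adjusted p of 0.997 in limma. Of all miRs 0 were called (0%) and 1 (0.649%) had an unadjusted p under 0.05. With the DRG level and replicate as a block the interval of miR-196c was 0.17 to 1.39. Its limma p was 0.0184, the fourth smallest of 154, but its adjusted p was 0.410. This rank is a description, because miR-196c was chosen with its Tibial-SNI minus Sural-SNI value known. The blocked interval of miR-196b was −0.05 to 1.08 (limma adjusted p = 0.452), and that of miR-10b was −1.54 to 0.55 (limma adjusted p = 0.699). In that fit 15 miRs (9.74%) had an unadjusted p under 0.05 and 0 an adjusted one. Against the mean of all miRs, miR-196c had a difference of 0.54 and a blocked limma p of 0.0390 with an adjusted p of 0.634, where 11 miRs (7.14%) were under 0.05 without adjustment. The difference of miR-196c was 1.25 within replicate 1 and 0.30 within replicate 2. Leaving out 1 array at a time took it from 0.34, without the L3-DRG array of Tibial-SNI replicate 1, to 1.21, without the L4-DRG array of Tibial-SNI replicate 2, and took that of miR-196b from 0.23 to 0.78.

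Some markers of other cells and tissues had values of like size in this comparison, and their part in the values of miR-196b and miR-196c was not tested. The skeletal muscle assays (miR-133a, miR-133b and 2 assays of miR-1) were higher in Tibial-SNI than in Sham in 4 of 4, with a median of 0.72, the vascular smooth muscle miRs miR-143 and miR-145 in 2 of 2 with a median of 0.79, and both strands of the endothelial miR-126 with a median of 0.37. Among the other lists, the leukocyte miRs were higher in 5 of 5, with a median of 0.33. MiR-486 of red blood cells (0.23) and miR-9 of neural cells (0.06) were higher too. The sensory neuron miRs miR-182 and miR-183 were lower in 2 of 2, with a median of −0.12, and miR-338-3p of myelinating glia was lower at −0.48. Over all miRs 125 of 154 were above 0, with a median of 0.23, and against the mean of all miRs the difference of miR-196b was 0.28.

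Tibial-SNI was also compared with Sural-SNI. The miR-10b and miR-196c values of this contrast were known when these miRs were chosen, so they are a description, and the sign of neither is independent evidence. Tibial-SNI minus Sural-SNI of miR-10b was −1.86 and 0.67 in L3-DRG and −2.05 and −0.62 in L4-DRG. That of miR-196c was 1.31 and 0.55 in L3-DRG and 0.76 and −0.16 in L4-DRG, and that of miR-196b was 0.42 and 0.33 in L3-DRG and 1.12 and −0.03 in L4-DRG. MiR-10b was lower in Tibial-SNI in 3 of 4 pairs and both miR-196 assays were higher in 3 of 4, and in each miR and level the replicate 1 pair gave the larger difference.

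For miR-196b, which was not chosen on this contrast, the mean difference was 0.46 (95% interval −0.32 to 1.23, limma adjusted p = 0.995), and 0.46 with an interval from −0.16 to 1.08 with the replicate block. The mean differences were −0.97 (−2.28 to 0.35) for miR-10b and 0.62 (−0.19 to 1.43) for miR-196c, and with the block the intervals were −2.22 to 0.29 and −0.10 to 1.33. With 1 array left out at a time, the difference ran from −1.51 to −0.52 for miR-10b, from 0.34 to 0.88 for miR-196c and from 0.24 to 0.66 for miR-196b. Leaving out a Sham array also removed the Sural-SNI and Tibial-SNI arrays matched to it. The values −1.51, 0.88 and 0.24 came from such fits. Over all miRs 1 of 154 (0.649%) was called, miR-325, which is no HOX cluster miR and was named after its value was seen, and 4 (2.60%) had an unadjusted p under 0.05, or 6 (3.90%) with the block, where 0 were called. Within replicate 1 the difference of miR-10b was −1.95, and within replicate 2 it was 0.02, so its sign rested on the replicate 1 arrays. For miR-196c these values were 1.04 and 0.20, and for miR-196b 0.77 and 0.15. Relative to each other within an array, miR-196c and miR-196b differed between Tibial-SNI and Sural-SNI by 0.16 (exact permutation p = 0.667, or 0.75 with the arrays paired), with 2 of 4 pairs on each side of 0.

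**Figure D4:**
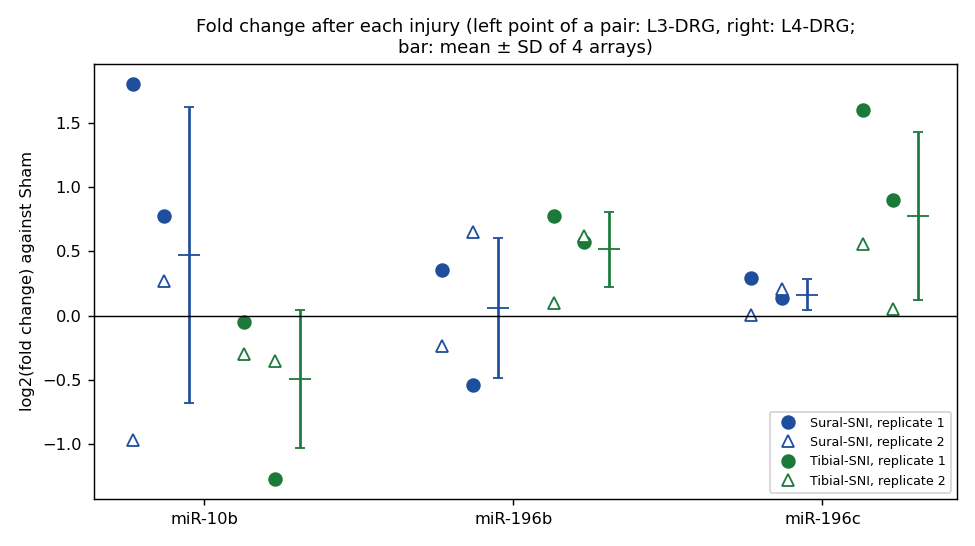
Log2(fold change) against the Sham array of the same level and replicate number in each SNI array, for Sural-SNI (blue) and Tibial-SNI (green), with circles for replicate 1, triangles for replicate 2, the L3-DRG value left of the L4-DRG value and the mean ± SD of 4 arrays at the right. All Tibial-SNI values of miR-196b and miR-196c lie above 0 and all those of miR-10b below 0, while the Sural-SNI values of miR-196c stay between 0.01 and 0.29.

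The skeletal muscle, vascular smooth muscle and endothelial markers were higher in Tibial-SNI than in Sural-SNI too, and here as well their part was not tested. The skeletal muscle assays were all higher in Tibial-SNI, 4 of 4 with a median of 1.23 and a range from 0.57 to 1.61. The vascular smooth muscle miRs differed by 0.87 to 1.07, and both strands of miR-126 by 0.38 and 0.42. None of these had an adjusted p under 0.05 in limma. An unadjusted limma p under 0.05 was found for 1 skeletal muscle assay and both vascular smooth muscle miRs, out of 4 among all 154 miRs. The median of all 154 miRs was 0.10. The paper reported miR-1, miR-133b, miR-143 and miR-145 as higher in Tibial-SNI than in Sural-SNI, both on the arrays and by qPCR. Of the other lists, miR-338-3p of myelinating glia was lower in Tibial-SNI than in Sural-SNI (−1.02). MiR-9 of neural cells (−0.13) and miR-486 of red blood cells (−0.14) were lower too. The sensory neuron list had 1 of 2 higher (median 0.06) and the leukocyte list 3 of 5 (median 0.09). Between L4-DRG and L3-DRG the skeletal muscle, vascular smooth muscle and miR-126 assays had medians of 0.25, −0.12 and 0.07, beside −0.01 for all miRs.

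**Figure D5:**
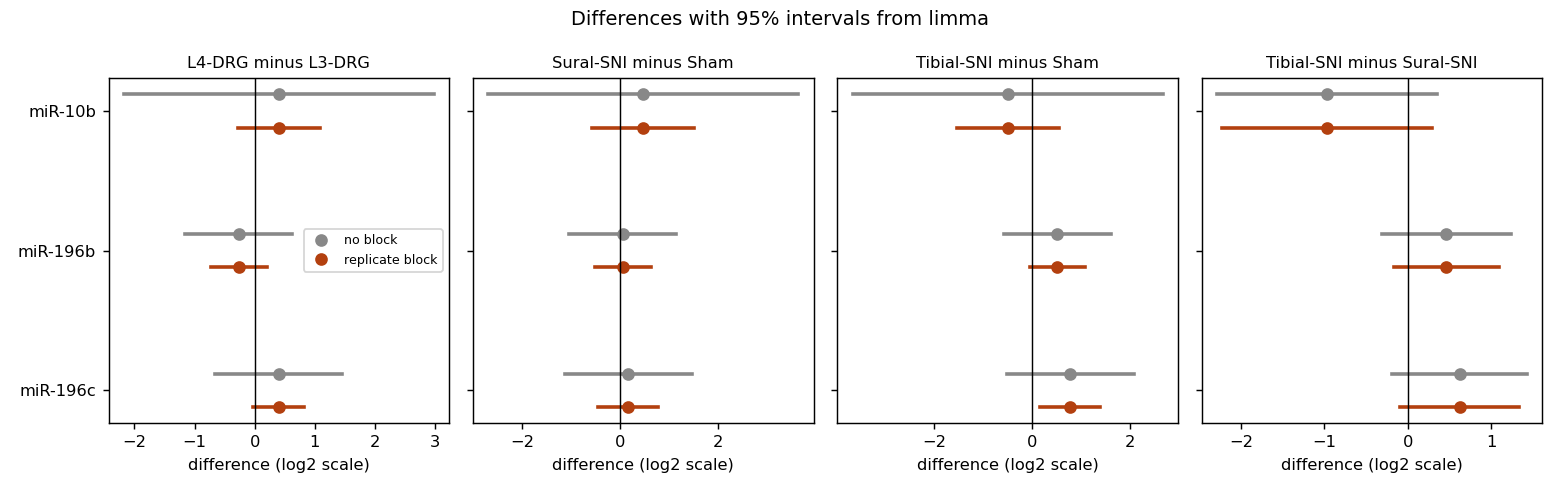
Differences on the log2 scale with 95% intervals from limma for each HOX cluster miR in 4 comparisons, without a block (grey) and with the replicate block (orange). The interval of miR-196c in Tibial-SNI minus Sham excludes 0 with the block, from 0.17 to 1.39, before adjustment over the 154 miRs. MiR-196c was chosen with its Tibial-SNI minus Sural-SNI value known. The other 23 intervals include 0.

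The miRs most like each HOX cluster miR were found by Pearson r over the 12 arrays, on Ct centred on the mean of all miRs of an array. For miR-10b these were miR-130a, miR-106a and miR-26a, with r of 0.92, 0.91 and 0.91. For miR-196b they were miR-191, miR-126-3p and miR-574-3p, with r of 0.97, 0.97 and 0.95, and for miR-196c miR-331-3p, miR-150 and miR-126-3p, each with 0.91. MiR-196b and miR-196c had r of 0.90 with each other, and miR-10b had −0.90 with miR-196b and −0.87 with miR-196c. These values share the shift between replicate numbers. With each replicate number centred on its own mean, r was 0.73, 0.51 and 0.48 for the miR-10b set, 0.71, 0.74 and 0.82 for the miR-196b set, and 0.01, −0.03 and 0.34 for the miR-196c set, and it fell to 0.24 between miR-196b and miR-196c.

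Relatives outside the HOX clusters were set beside these values. Of miR-99a, miR-99b and miR-100, the relatives of miR-10, only miR-99b had a row, and it differed by 0.01 between L4-DRG and L3-DRG (95% interval −0.88 to 0.90). Its mature strand is shown because it is the only measured relative of miR-10.
miR-99b-5p: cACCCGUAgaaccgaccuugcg

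All 9 miRs of the let-7 list had a row, and 7 were higher and 2 lower in L4-DRG than in L3-DRG, with a median of 0.08. Over all miRs 75 were higher and 79 lower, with a median of −0.01. The let-7 values ran from −0.32 for let-7e to 0.38 for let-7b, a range that holds the value of miR-196b and reaches just short of the 0.40 of miR-196c, and 0 of 9 had a limma p under 0.05, adjusted or not.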

How the data were processed

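RNA of 12 single DRG was run by the authors on TaqMan rodent microRNA cards, and the miRs detected in all arrays were kept. The deposited table holds Ct values without normalization (160 wells, 6 of them reference wells). The deposited fold changes, a linear ratio against Sham, served as a check and an alternative. No count of molecules underlies a Ct, so the arrays alone set the precision.

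The 4 wells of MammU6 were averaged, then −ΔCt was computed from the 3 reference assays. Differences were fitted with limma 3.58.1 (lmFit and eBayes) in R 4.3.3, two-sided, with Benjamini-Hochberg adjustment over 154 miRs. Tibial-SNI and Sural-SNI were compared on log2(fold change) of the 8 SNI arrays, and the other comparisons on −ΔCt of all 12. Members were compared within an array by exact permutation in Python 3.11.15. The fits were checked on simulated data. The source of the arrays of a group is not given, so the p-values measure the spread between arrays.

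Arrays of the same level and number correlated in their deviations from the group means, with r from 0.46 to 0.81 over 12 pairs (−0.70 to −0.56 between numbers), and arrays of 1 group, number and both levels with r from 0.38 to 0.61 over 6 pairs. These correlations share the shift between replicate numbers. They therefore cannot show that an L3-DRG and an L4-DRG of 1 group and number belong together. That the numbers pair the samples was an assumption.

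The HOX cluster miRs, the other lists and the alternatives were chosen with earlier results of these data known. The rule for named miRs took the HOX cluster miRs, the reference assays, the 3 miRs most like each by Pearson r, and the extremes of the let-7 list. Sequences were matched by miR name in RefSeq (GRCr8), for 3 of 3 members. HOX neighbours were read from the RefSeq gene table.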

Additional observations from a re-analysis of the deposited data

How the results depend on the processing

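No alternative gave a HOX cluster miR an adjusted p under 0.05. The smallest adjusted p of a member was 0.410 with all arrays, for miR-196c in Tibial-SNI minus Sham with the replicate block (difference 0.78), and 0.855 with an array left out. The block moved the counts at an unadjusted p as given above and changed no call of these miRs. The methods' one-tailed test placed miR-196c (difference 0.62) under its threshold of 0.09 between Tibial-SNI and Sural-SNI, as 1 of 17 of the 154 miRs, while miR-10b (0.0901) and miR-196b (0.0945) lay just over it. MiR-325, the miR called there, was lost (0 called) with each other reference, the block with either reference, a Ct of at most 35, the mean of both Sham arrays, all 12 arrays in one fit, and each of the 12 arrays left out, for which the count ran from 0 to 0. The count stayed at 1 with a variance trend in limma, and with arrays of a group and number treated as correlated in limma. The methods' test of Tibial-SNI against Sural-SNI also called miR-325 after Benjamini-Hochberg adjustment (adjusted p = 0.00178). The paper reported that qPCR did not bear out its array result for miR-325. The methods' one-sample test against 0 called 1 miR in Sural-SNI (miR-325) and 1 in Tibial-SNI (miR-195), both named after their values were seen. The mean of all miRs with the block, and the leaving out of arrays for Sham alone, the interactions and the differences within an array, were chosen after seeing the data. So was the paired test of the differences within an array, in which signs were exchanged. Causes of the changes below were not tested.

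Reference choices turned the sign of small values of both miR-196 assays. MiR-196b in Sural-SNI minus Sham was −0.014 with snoRNA135 and −0.098 with the mean of all miRs. Its level interaction of Sural-SNI with Sham was 0.11 with snoRNA135, 0.0055 with snoRNA135 and U87, and 0.34 with the mean of all miRs. With MammU6 its interactions were −0.13 for Tibial-SNI with Sham and −0.10 for Tibial-SNI with Sural-SNI. With U87 the interaction of miR-196c for Sural-SNI with Sham was −0.071.

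Leaving out 1 array at a time turned the sign of the following in some fits. MiR-10b ran from −0.24 to 1.05 in L4-DRG minus L3-DRG (below 0 in 3 of 12 fits), from −1.90 to 3.06 in Sham alone, from −0.49 to 1.37 in Sural-SNI minus Sham and from −1.46 to 0.40 in Tibial-SNI minus Sham. Its interactions ran from −2.38 to 2.58 (Sural-SNI with Sham), −3.12 to 1.84 (Tibial-SNI with Sham) and −3.10 to 1.61 (Tibial-SNI with Sural-SNI). MiR-196b ran from −1.05 to 0.42 in Sham alone and from −0.23 to 0.32 in Sural-SNI minus Sham, and its interactions, in that order, from −0.74 to 0.73, −0.57 to 0.90 and −0.54 to 0.88. MiR-196c ran from −0.066 to 0.42 in Sural-SNI minus Sham, and its interactions from −0.55 to 0.60, −1.56 to 0.35 and −1.59 to 0.33. Within an array, miR-10b against miR-196b ran from −0.34 to 1.67 between levels and −2.93 to 0.077 between injuries, miR-10b against miR-196c from −1.10 to 1.10 and −3.24 to 0.070, and miR-196c against miR-196b from −0.021 to 0.34 between injuries. Between levels, miR-196c against miR-196b kept its sign in 12 of 12 fits, from 0.55 to 0.78, and miR-196c itself ran from 0.22 to 0.69 there. Signs also held, with changes of over 1.5 times, for miR-196b between levels (−0.45 to −0.07), for miR-196c in Sham alone (0.07 to 1.13), and for the Tibial-SNI values given with their ranges above.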
